A study of Rattus norvegicus with 325 samples.

Results

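Pvalb, Calml3, Emb and Bmp3 are 4 genes whose level with age moved differently from one rat muscle to another. They were chosen by their measured change from 6 to 27 months, which differed widely between muscles, and were found by symbol among 17315 gene symbols in the count files. Each of the 4 stood on 1 line of the files. The series holds 325 RNA libraries. Their donors were male rats of the Sprague Dawley strain, which is outbred. The rats were bought young, aged at the vendor and sampled at 6, 9, 12, 18, 21, 24 or 27 months, with no treatment and no engineered allele in any group. There were 83 libraries of diaphragm, 73 of gastrocnemius, 84 of soleus and 85 of tibialis anterior, 9 to 13 for each muscle and age. By the study's sample counts, each library of a muscle came from a different rat. The p-values within a muscle therefore measure the spread between rats. The labels do not name the animal, so libraries of different muscles were treated as independent, though some may share a rat.

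The 4 genes have different known roles. Pvalb encodes parvalbumin, a cytosolic calcium buffer of fast fibres that speeds their relaxation. Calml3 encodes a calmodulin-like calcium sensor best known from epithelial cells. Emb encodes embigin, a membrane glycoprotein of the basigin family that escorts monocarboxylate carriers to the cell surface and is known to promote sprouting of motor nerve terminals. Bmp3 encodes a secreted member of the bone morphogenetic protein family that restrains signalling by other members of it. The soleus is a slow muscle, the tibialis anterior and gastrocnemius consist mostly of fast fibres, and the diaphragm is mixed and works throughout life.

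The start region of each gene is printed so that the 4 can be set side by side. RefSeq gave, for all 4 genes, a window of 250 bases before and 50 bases after the annotated start, on the GRCr8 build, which is later than the build behind the counts. Capitals mark CANNTG, the E-box letters bound by myogenic and other helix-loop-helix factors, read on both strands and with N for any base.
Pvalb, chr7:111666240-111666539, minus strand: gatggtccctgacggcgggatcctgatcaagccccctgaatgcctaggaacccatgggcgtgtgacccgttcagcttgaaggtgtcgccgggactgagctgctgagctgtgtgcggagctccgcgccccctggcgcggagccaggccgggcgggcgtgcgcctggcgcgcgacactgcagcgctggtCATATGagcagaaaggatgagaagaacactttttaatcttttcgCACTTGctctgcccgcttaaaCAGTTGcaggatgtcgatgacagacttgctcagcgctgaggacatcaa
Calml3, chr17:71331276-71331575, plus strand: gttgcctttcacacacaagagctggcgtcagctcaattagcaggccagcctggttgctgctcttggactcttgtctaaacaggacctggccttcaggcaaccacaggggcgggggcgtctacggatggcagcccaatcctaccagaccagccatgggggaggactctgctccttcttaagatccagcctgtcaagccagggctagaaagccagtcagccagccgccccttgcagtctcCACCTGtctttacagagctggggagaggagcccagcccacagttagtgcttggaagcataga
Emb, chr2:50803218-50803517, plus strand: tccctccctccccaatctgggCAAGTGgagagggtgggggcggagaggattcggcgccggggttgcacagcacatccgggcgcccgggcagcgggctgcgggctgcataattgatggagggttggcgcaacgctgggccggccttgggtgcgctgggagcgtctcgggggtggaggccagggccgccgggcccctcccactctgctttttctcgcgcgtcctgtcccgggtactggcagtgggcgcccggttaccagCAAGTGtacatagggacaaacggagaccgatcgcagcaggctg
Bmp3, chr14:11041233-11041532, minus strand: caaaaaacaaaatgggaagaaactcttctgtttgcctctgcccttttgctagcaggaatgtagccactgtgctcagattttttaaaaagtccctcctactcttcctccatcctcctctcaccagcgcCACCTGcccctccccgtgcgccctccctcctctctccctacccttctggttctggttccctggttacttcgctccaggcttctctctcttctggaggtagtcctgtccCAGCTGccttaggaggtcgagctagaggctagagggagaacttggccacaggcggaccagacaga
CANNTG matched 3 times in the Pvalb window, once in Calml3, and 2 times in each of Emb and Bmp3, and 72.1% of all 33469 rat windows of this length hold at least 1 match. The stricter form CAGCTG, which is contained in the former, was found in the Bmp3 window alone among the 4 and in 15.1% of all windows. TGTGGT, the core letters read by RUNX factors, stood once in the Calml3 window and in 17.3% of all windows. TATAAA was in none of the 4 windows and in 14.2% of all. The Emb window was 69.0% G and C, against a median of 51.7% over all windows.

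The libraries held 17.6 to 85.3 M (mega) counts, with a median of 31.9 M, and no pair of them was identical. Muscle labels were checked with myosin genes. Myh7, the slow myosin, had a median of 47500 CPM, which are counts per M of the library total as scaled by the trimmed mean of M values, in soleus and 2210 CPM in tibialis anterior. Myh4, the fastest myosin, had medians of 14.3 and 77800 CPM there. All libraries of 1 age were collected on 1 day, so age and collection day cannot be told apart. The running sample numbers of the labels fell into 3 series. The first held every gastrocnemius library and no other, so that series and muscle cannot be told apart there, and the third held the 12 month libraries of 3 muscles plus 1 library of each of them at 21 months.

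The choice of the genes rests on the 27 against 6 month contrast, whose values are therefore given as a description, with no test. Between gastrocnemius and diaphragm, the change of Calml3 differed by 5.50 on the log2 scale and that of Emb by 5.31, the largest differences among genes with a mean log2 CPM over 0. Between soleus and diaphragm Pvalb led with 5.87, ahead of Tmem158 at 4.45. Between tibialis anterior and diaphragm Emb led with 5.85, ahead of Sln at 5.45. Bmp3 lay below that level, at a mean log2 CPM of -0.23. Without the level limit it ranked 15 of 12784 genes between tibialis anterior and gastrocnemius, with a difference of 2.28. Between tibialis anterior and soleus the largest difference, 8.49, belonged to Alb, the albumin gene of liver, ahead of Pvalb at -6.28, and between tibialis anterior and gastrocnemius Alb (2.90) and Cep290 (-2.09) led. Alb reached 1750 CPM in 1 soleus library at 27 months. Of the libraries compared below, those of the limb muscles at 9 and 24 months held at most 5.09 CPM of Alb. In the diaphragm Alb reached 125 CPM at 9 months and 191 CPM at 24 months. The fits also hold the ages between, where it reached 1310 CPM in the soleus at 18 months.

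The levels of the chosen genes at 27 months were as follows. Pvalb in the soleus ran from 1.48 to 67.4 CPM around a median of 31.7, against 0.0924 to 3.32 around 0.397 at 6 months. Emb at 27 months had medians of 50.3 CPM (gastrocnemius), 49.6 (soleus) and 44.4 (tibialis anterior), but 0.774 in the diaphragm. Calml3 had medians of 8.83, 8.30 and 8.33 CPM in the same limb muscles and 0.742 in the diaphragm. At 27 months the 3 limb muscles stood close together in both genes, and the diaphragm stood far below them. Bmp3 at 27 months had medians of 1.40 CPM in the tibialis anterior, 1.46 in the soleus, 1.07 in the gastrocnemius and 0.910 in the diaphragm. Every 27 month library lay above every 6 month library for Calml3 and Emb in the gastrocnemius, and for Calml3, Emb and Bmp3 in the tibialis anterior. Such separation was found for 6.54% and 8.83% of all genes tested in these muscles, 1.26% in the diaphragm and 2.21% in the soleus, and nothing is read from it here because the contrast chose the genes.

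**Figure D1:**
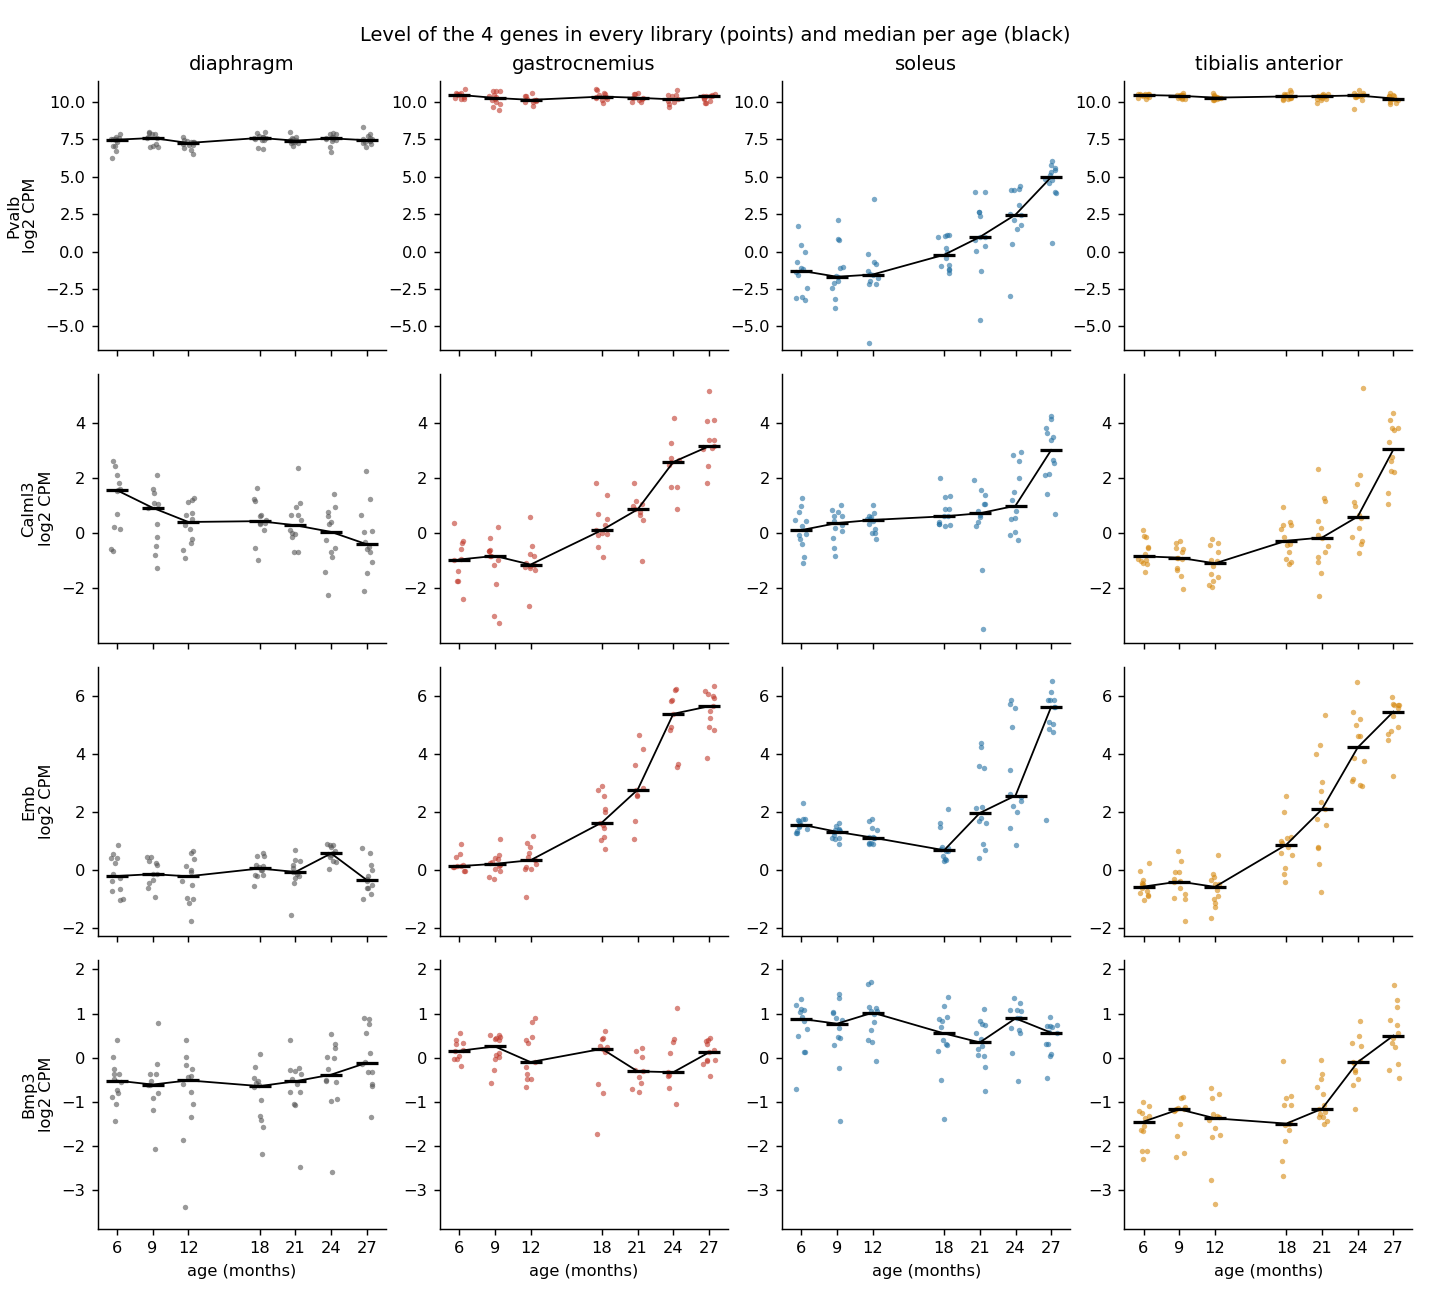
Level of each gene in log2 CPM (vertical axis, one scale per row) against age in months, with 1 point per library and a black line through the median of each age. Pvalb stays level in 3 muscles and climbs in the soleus, Calml3 and Emb climb in the 3 limb muscles, and Bmp3 climbs in the tibialis anterior alone, from a median of 0.429 CPM at 9 months to 0.920 CPM at 24 months.

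To test the change with age on libraries that had no part in the choice, 24 months was compared with 9 months in fits of the 5 ages from 9 to 24 months (limma-voom, two-sided, Benjamini-Hochberg over all genes). Calls needed more than a 1.5-fold change besides an adjusted p below 0.05. Of the 4 genes, 1 was called higher at 24 months in the diaphragm, where 0.917% of genes tested were called higher. The gastrocnemius had 2 called higher against 9.19% of genes tested, the soleus 3 against 2.97%, and the tibialis anterior 3 against 8.37%. None was called lower in any muscle, against 0.202%, 6.53%, 1.76% and 2.95% of genes tested in diaphragm, gastrocnemius, soleus and tibialis anterior. By Bonferroni adjustment the calls of all 3 genes in the soleus, of Emb in the diaphragm and of Calml3 in the tibialis anterior were lost (adjusted p 1). Differences between muscles in this change were tested in a fit of all 4 muscles together, over 6 muscle pairs and 4 genes. This fit took all libraries as independent. Of these 24 differences 13 were called, with the share of all genes called given beside each pair below.

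Pvalb was higher at 24 than at 9 months in the soleus and was not called in the other 3 muscles. In the soleus at 9 months it ran from 0.0577 to 4.24 CPM with a median of 0.297, and at 24 months from 0.113 to 20.8 CPM with a median of 5.52. The groups overlapped, though 8 of the 12 libraries at 24 months lay above the highest of 9 months. The change was 3.67 on the log2 scale (SE 1.18), or 12.7-fold, with an adjusted p of 0.0122 in limma. Counts behind it were low, 2 to 141 per library at 9 months and 4 to 658 at 24 months. In bulk tissue, more cells that express a gene and more RNA per cell cannot be told apart.

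In the remaining muscles Pvalb was abundant at every age. The diaphragm ran from 126 to 250 CPM at 9 months (median 195) and from 101 to 247 at 24 months (median 191). The gastrocnemius had 714 to 1710 CPM at 9 months (median 1240) and 814 to 1800 at 24 months (median 1160), and the tibialis anterior 1160 to 1580 (median 1380) and 745 to 1760 (median 1390). The ages overlapped almost fully in each. The log2 changes were 0.00 (SE 0.13), 0.00 (SE 0.13) and 0.01 (SE 0.08), with adjusted p of 0.994, 0.999 and 0.903 in limma.

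The age-related change of Pvalb in the soleus exceeded that in each of the other muscles. The difference in log2 change was 3.67 from the diaphragm (SE 0.71, adjusted p 5.0e-05, 3.27% of genes called), 3.65 from the gastrocnemius (SE 0.71, 1.4e-05, 8.11%) and, with the tibialis anterior minus the soleus, -3.64 (SE 0.71, 1.3e-05, 8.14%), all in limma. This fit pooled the spread over muscles. With a separate spread for each muscle, the 3 differences kept their calls at an SE of 1.19, 1.19 and 1.18 and adjusted p of 0.0272, 0.0158 and 0.0132. Among the other muscles the differences were at most 0.03, and the interval from tibialis anterior to gastrocnemius ran from -0.53 to 0.54.

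Pvalb at 9 months had the widest range between muscles of the 4 genes. The order of medians was tibialis anterior, gastrocnemius, diaphragm, soleus. The tibialis anterior and gastrocnemius did not differ beyond their spread (log2 difference 0.14, SE 0.19, adjusted p 0.563 in limma, 17.0% of genes called). The gastrocnemius stood 6.38-fold above the diaphragm (adjusted p 8.1e-33, 37.2% of genes called), and the diaphragm 484-fold above the soleus (adjusted p 3.0e-29, 22.2% of genes called). With the fast fibre level as a covariate, which itself differs between muscles, the latter difference was -1.43 and no longer called (adjusted p 0.0747 in limma). The rise in the soleus to a median of 31.7 CPM at 27 months still left it below every diaphragm library, the lowest of which, at 6 months, had 77.5 CPM.

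Some markers of fast fibres were also called higher in the soleus at 24 against 9 months. Of the 12 fast fibre genes 2 were called higher at 24 months there, against 2.97% of all genes tested, Mylpf by 1.33 (SE 0.34, adjusted p 0.00161) and Actn3 by 1.66 (SE 0.59, adjusted p 0.0247), and the list had a median log2 change of 0.64 against 0 over all genes tested. The summed level of the 12 in the soleus ran from 3230 to 10600 CPM at 9 months (median 4130). At 24 months it ran from 3840 to 10100 CPM (median 5770), and no marker was at 0 throughout. The ranges of the 2 ages overlapped almost fully, with the higher median at 24 months. With the mean level of the fast fibre genes as a covariate, the change of Pvalb was 3.53 with an adjusted p of 4.2e-04 in limma. At 27 against 6 months, 9 of the 12 were called higher in the soleus and 0 lower, with a median log2 change of 2.12. Of all 12175 genes tested in that contrast, 1121 were called higher. The median of the summed level was 5210 CPM at 6 months and 10000 at 27 months. The part of fibre type in the rise of Pvalb was not tested.

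Calml3 was higher at 24 than at 9 months in the gastrocnemius and tibialis anterior, more weakly in the soleus, and not called in the diaphragm. In the gastrocnemius it ran from 0.0904 to 1.15 CPM at 9 months (median 0.550) and from 1.82 to 18.1 at 24 months (median 5.98). The ages did not overlap there. Every 24 month library lay above every 9 month library for 3.51% of genes tested in this muscle and for 0.118% (diaphragm), 0.619% (soleus) and 4.34% (tibialis anterior) in the others. The log2 change was 3.57 (SE 0.40, adjusted p 1.9e-10 in limma), 11.9-fold, and 2.63 with the mean level of the fast fibre genes as a covariate (adjusted p 4.1e-06).

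In the tibialis anterior Calml3 ran from 0.233 to 0.797 CPM at 9 months (median 0.53) and from 0.598 to 38.6 at 24 months (median 1.5). The ages overlapped in 2 libraries, since 10 of 12 at 24 months lay above the highest at 9 months. The log2 change was 2.12 (SE 0.52, adjusted p 4.5e-04 in limma), and 1.64 without replicate 6, the library with 38.6 CPM and the lowest Myh4 of its group. The change was 3.18 by edgeR (adjusted p 4.9e-07) and 3.16 by DESeq2 (adjusted p 3.0e-10). With the fast fibre level as a covariate the change was 0.52 and no longer called (adjusted p 0.240). Of the 12 fast fibre genes 3 were called lower in this muscle, against 2.95% of all genes tested. In the gastrocnemius 4 of the 12 were called lower, against 6.53%. The summed level of the 12 in the tibialis anterior went from 221000 to 259000 CPM at 9 months to 82900 to 227000 at 24 months. The part of fibre type in the change of Calml3 was not tested.

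The call of Calml3 in the soleus was weak. It ran from 0.550 to 2.01 CPM at 9 months (median 1.28) and from 0.821 to 7.64 at 24 months (median 1.99), with 6 of 12 libraries above the highest of 9 months. The log2 change was 0.92 (SE 0.35, adjusted p 0.0361 in limma). The call was lost without any 1 of 8 libraries. These were replicates 5, 6, 7 and 11 of 24 months (changes of 0.85, 0.79, 0.76 and 0.79) and replicates 1, 2, 8 and 10 of 9 months (0.81, 0.92, 0.88 and 0.88). It was also lost with quality weights on the samples (0.57, adjusted p 0.126), with all 7 ages in the fit (adjusted p 0.130) and without the third series of running numbers (adjusted p 0.0616).

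In the diaphragm Calml3 leaned the other way and was not called. It ran from 0.399 to 4.33 CPM at 9 months (median 1.88) and from 0.199 to 2.66 at 24 months (median 1.04), with broad overlap. The log2 change was -0.42 (SE 0.37, adjusted p 0.657 in limma). The medians stepped from 2.93 CPM at 6 months to 0.742 at 27 months, a fitted change of -1.24 in the contrast that chose the gene.

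Between muscles, the age-related change of Calml3 was larger than in the diaphragm by 3.98 in the gastrocnemius (SE 0.62, adjusted p 3.3e-08, 10.6% of genes called) and by 2.56 in the tibialis anterior (SE 0.63, adjusted p 8.5e-04, 7.07% called), in limma. It was smaller in the soleus than in the gastrocnemius, at -2.64 (SE 0.58, adjusted p 1.4e-04). The remaining 3 pairs were not called. The soleus minus diaphragm difference was 1.34 with an interval from 0.27 to 2.41, tibialis anterior minus soleus 1.22 from 0.04 to 2.39, and tibialis anterior minus gastrocnemius -1.43 from -2.73 to -0.12. The first 2 were called by edgeR (1.93, adjusted p 0.00688, and 1.90, adjusted p 0.00414) and the last with quality weights in limma (-2.24, adjusted p 4.1e-04).

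At 9 months Calml3 was higher in the diaphragm and soleus than in the fast muscles. The diaphragm (median 1.88 CPM) and soleus (1.28) did not differ beyond their spread, with a log2 difference of -0.11 (SE 0.39, adjusted p 0.814 in limma), nor did the gastrocnemius (0.550) and tibialis anterior (0.53), at 0.14 (SE 0.60, adjusted p 0.859). The gastrocnemius lay below the diaphragm by 1.53 in log2 units (SE 0.50, adjusted p 0.00363) and below the soleus by 1.42 (SE 0.51, adjusted p 0.00874). The tibialis anterior lay below the diaphragm by 1.39 (SE 0.50, adjusted p 0.00884) and below the soleus by 1.27 (SE 0.51, adjusted p 0.0189), and the latter call was lost with all 7 ages in the fit (adjusted p 0.0588). At 24 months the gastrocnemius had the highest median, 5.98 CPM, and the diaphragm the lowest, 1.04.

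In the fast muscles Emb changed more than the other 3 genes from 9 to 24 months. In the gastrocnemius it ran from 0.789 to 2.08 CPM at 9 months (median 1.14) and from 11.7 to 76.3 at 24 months (median 41.8). In the tibialis anterior it ran from 0.279 to 1.57 CPM (median 0.744) and from 7.38 to 89.2 (median 19.4). The ages did not overlap in either muscle, a separation found for 3.51% and 4.34% of genes tested. The log2 changes were 4.96 (SE 0.45, adjusted p 2.9e-13) and 4.85 (SE 0.75, adjusted p 2.6e-07) in limma, 31.0-fold and 28.8-fold. With the fast fibre level as a covariate they were 3.81 and 3.91 and still called (adjusted p 7.3e-10 and 3.5e-06).

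In the soleus Emb started higher and its libraries parted at 24 months. It ran from 1.84 to 3.11 CPM at 9 months (median 2.48) and from 1.78 to 57.7 at 24 months (median 5.93). At 24 months 4 libraries held 30.2, 48.1, 53.5 and 57.7 CPM, and the other 8 held at most 10.9. The log2 change was 2.03 (SE 0.53, adjusted p 0.00227 in limma). The quasi-likelihood test of edgeR, which averages counts rather than logs, gave 3.01 with an adjusted p of 2.7e-07.

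In the diaphragm Emb was also called higher at 24 months, by a small amount, but had a lower median at 27 months. It ran from 0.507 to 1.34 CPM at 9 months (median 0.894), from 1.02 to 1.84 at 24 months (median 1.48) and from 0.481 to 1.68 at 27 months (median 0.774). The log2 change from 9 to 24 months was 0.65 (SE 0.17, adjusted p 0.0193 in limma), 1.57-fold, with 9 of 12 libraries above the highest of 9 months. The call was lost without replicate 2 (0.60) or replicate 4 (0.58) of 9 months. The counts behind it were 16 to 79 per library at 9 months and 37 to 70 at 24 months. At 24 months, then, Emb was called higher in all 4 muscles, and the muscles differed in the size of the change.

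Between muscles, the age-related change of Emb exceeded that of the diaphragm by 4.32 in the gastrocnemius (SE 0.89, adjusted p 3.2e-05) and by 4.21 in the tibialis anterior (SE 0.99, adjusted p 3.9e-04) in limma. The gastrocnemius and tibialis anterior differed by -0.11 with an interval from -1.80 to 1.58, where 1.70% of genes were called. The soleus changed less than either, by -2.94 against the gastrocnemius (SE 0.68, adjusted p 3.0e-04) and by 2.83 for the tibialis anterior minus the soleus (SE 0.80, adjusted p 0.00339). The soleus minus diaphragm difference of 1.38 was not called, with an interval from -0.26 to 3.01, though edgeR called it at 2.37 (adjusted p 0.00132).

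At 9 months the soleus had the highest median of Emb. In the fit that pools the spread over ages and muscles, only the soleus and tibialis anterior were called, at -1.80 for tibialis anterior minus soleus (SE 0.75, adjusted p 0.0240 in limma, 41.3% of genes called). The spread of Emb was far smaller at 9 months than at 24 months, with an SD of 0.21 against 1.77 in the soleus. With 9 month libraries alone, the soleus was also called above the diaphragm, by 1.35 (SE 0.14, adjusted p 4.1e-09), and above the gastrocnemius, by 1.04 (SE 0.13, adjusted p 2.2e-08), and the tibialis anterior below the gastrocnemius, at a log2 difference of -0.70 (SE 0.20, adjusted p 0.00361).

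Bmp3 was called higher at 24 months in the tibialis anterior and in no other muscle. In the tibialis anterior it ran from 0.194 to 0.527 CPM at 9 months (median 0.429) and from 0.432 to 1.78 at 24 months (median 0.920). The ages overlapped by 1 library, as 11 of 12 lay above the highest of 9 months. The log2 change was 1.40 (SE 0.22, adjusted p 5.2e-07 in limma), 2.63-fold. The counts behind it were few, 7 to 18 per library at 9 months and 13 to 85 at 24 months.

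In the other muscles Bmp3 overlapped between the ages. The gastrocnemius ran from 0.653 to 1.42 CPM at 9 months (median 1.18) and from 0.467 to 2.18 at 24 months (median 0.780). The soleus had 0.357 to 2.70 CPM (median 1.69) and 0.682 to 2.56 (median 1.84), and the diaphragm 0.224 to 1.70 (median 0.643) and 0.150 to 1.44 (median 0.752). The log2 changes were -0.32 (SE 0.23), 0.10 (SE 0.23) and 0.14 (SE 0.30), with adjusted p of 0.239, 0.787 and 0.893 in limma.

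The change of Bmp3 in the tibialis anterior exceeded that in each other muscle, by 1.72 against the gastrocnemius (SE 0.40, adjusted p 0.00249), 1.30 against the soleus (SE 0.36, adjusted p 0.0031) and 1.26 against the diaphragm (SE 0.41, adjusted p 0.0155) in limma. The other 3 pairs were not called, and the intervals of their differences lay between -1.22 and 1.07. At 9 months the order was soleus, gastrocnemius, diaphragm, tibialis anterior. The soleus and gastrocnemius were not called apart (0.52, SE 0.21, adjusted p 0.0197, 42.5% of genes called), as the difference was under 1.5-fold. The gastrocnemius lay above the diaphragm by 0.69 (SE 0.25, adjusted p 0.0109), a call lost with total-count scaling (0.28, adjusted p 0.306), and the tibialis anterior below the diaphragm (-0.89, SE 0.32, adjusted p 0.00979, 34.9% of genes called). By 27 months the tibialis anterior, lowest in youth, had a median of 1.40 CPM beside 1.46 in the soleus.

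**Figure D2:**
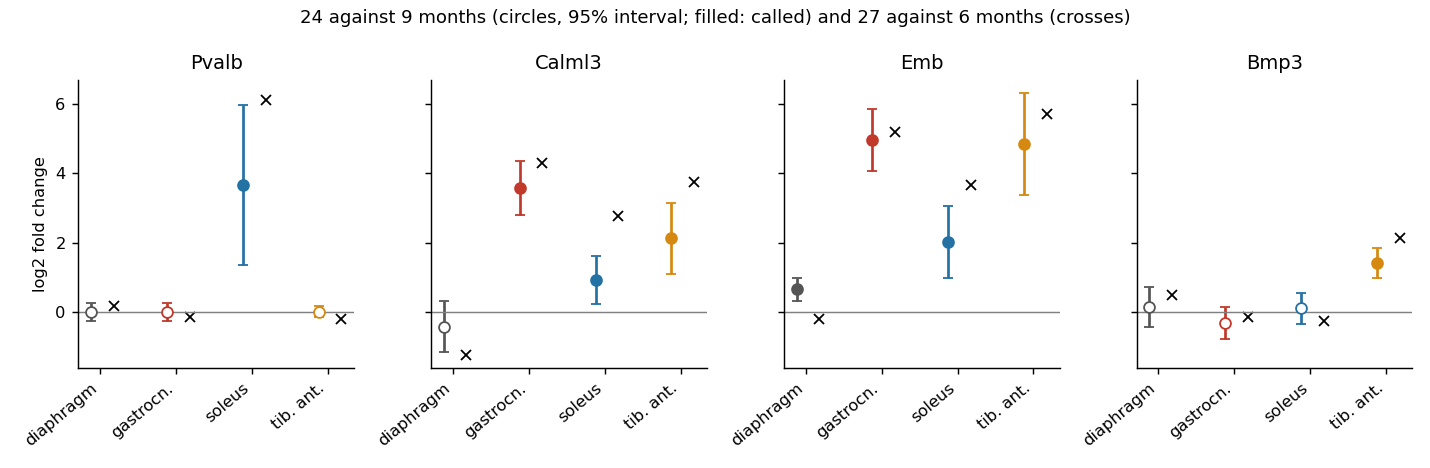
Log2 fold change of each gene in each muscle. Circles with bars are 24 against 9 months with 95% intervals, filled where called, and crosses are the 27 against 6 month changes that chose the genes. Pvalb leaves 0 in the soleus (3.67) and Bmp3 in the tibialis anterior (1.40), while Calml3 and Emb leave it in all 3 limb muscles and Emb also, by 0.65, in the diaphragm.

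The age at which the levels left the young range differed between genes and muscles. Taking the highest library of 6 and 9 months as the limit, Emb in the gastrocnemius exceeded it in 1 of 11 libraries at 12 months, 9 of 11 at 18 months and 8 of 9 at 21 months. In the tibialis anterior it did so in 0 of 12, 7 of 12 and 11 of 13. In the soleus Emb exceeded the limit in 0 of 12 libraries at 18 months, 4 of 12 at 21 months and 8 of 12 at 24 months. By this count the soleus left the young range at a later age than the fast muscles, a description with no test.

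Calml3 in the gastrocnemius passed its young limit in 4 of 11 libraries at 18 months, 8 of 9 at 21 months and 9 of 9 at 24 months. In the tibialis anterior these counts were 5 of 12, 5 of 13 and 8 of 12, and in the soleus 3 of 12, 3 of 12 and 5 of 12. Pvalb in the soleus passed it in 0 of 12, 5 of 12 and 8 of 12 libraries at these ages, after 1 library at 12 months with 11.3 CPM. Bmp3 in the tibialis anterior passed it in 2 of 12, 5 of 13 and 11 of 12. At 27 months 11 of 12 soleus libraries lay above the limit for each of Pvalb, Calml3 and Emb.

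Classed by the form of their course over all 7 ages, which includes the ages that chose them, Emb was logistic with an inflection at 21 months in the gastrocnemius and 21.75 months in the tibialis anterior. Bmp3 was logistic in the tibialis anterior with an inflection at 22.75 months, and Pvalb in the soleus at 24 months. Calml3 was late logistic in the 3 limb muscles, at 24.25 months in the soleus and at 27 months, the end of the range, in the other two. Emb in the soleus also had its inflection at 27 months, and Calml3 in the diaphragm was linear and falling. With the ages from 9 to 24 months alone, Pvalb in the soleus and Calml3 in the gastrocnemius and tibialis anterior became linear rising, Emb had its inflection at 21 months in the soleus and at 22.25 months in the gastrocnemius, and Calml3 in the soleus and diaphragm had no trend. The fall of Calml3 in the diaphragm was also lost at a stricter margin of the criterion. Pvalb outside the soleus, Emb in the diaphragm and Bmp3 outside the tibialis anterior had no trend by either count.

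Single libraries were high or low in several of the genes at once. In the soleus at 24 months, the 4 libraries highest in Emb (replicates 5, 6, 7 and 11) were also the 4 highest in Pvalb, at 17.6 to 20.8 CPM, and the 4 highest in Calml3, at 4.02 to 7.64 CPM. The next library in Pvalb had 8.58 CPM and the next in Calml3 2.82 CPM. The same 4 were highest in Myh4, at 26.3 to 35.2 CPM against at most 15 in the other 8, and lowest in Myh7. In Bmp3 their places ran from 1 to 8 of 12.

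At 27 months in the soleus, replicate 9 was lowest in Pvalb (1.48 CPM), Calml3 (1.61 CPM) and Emb (3.25 CPM), while the next lowest held 14.8, 2.64 and 26.9 CPM. It also had the highest Myh7 of its group, 55200 CPM. In the tibialis anterior at 24 months, replicate 6 was highest in Emb (89.2 CPM), Calml3 (38.6 CPM) and Bmp3 (1.78 CPM), and lowest in Pvalb (745 CPM) and Myh4 (10500 CPM). In the gastrocnemius at 24 months, replicate 7 led in Emb (76.3 CPM), Calml3 (18.1 CPM) and Bmp3 (2.18 CPM). Without that library the changes of Calml3 and Bmp3 in the gastrocnemius were 3.37 and -0.46.

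**Figure D3:**
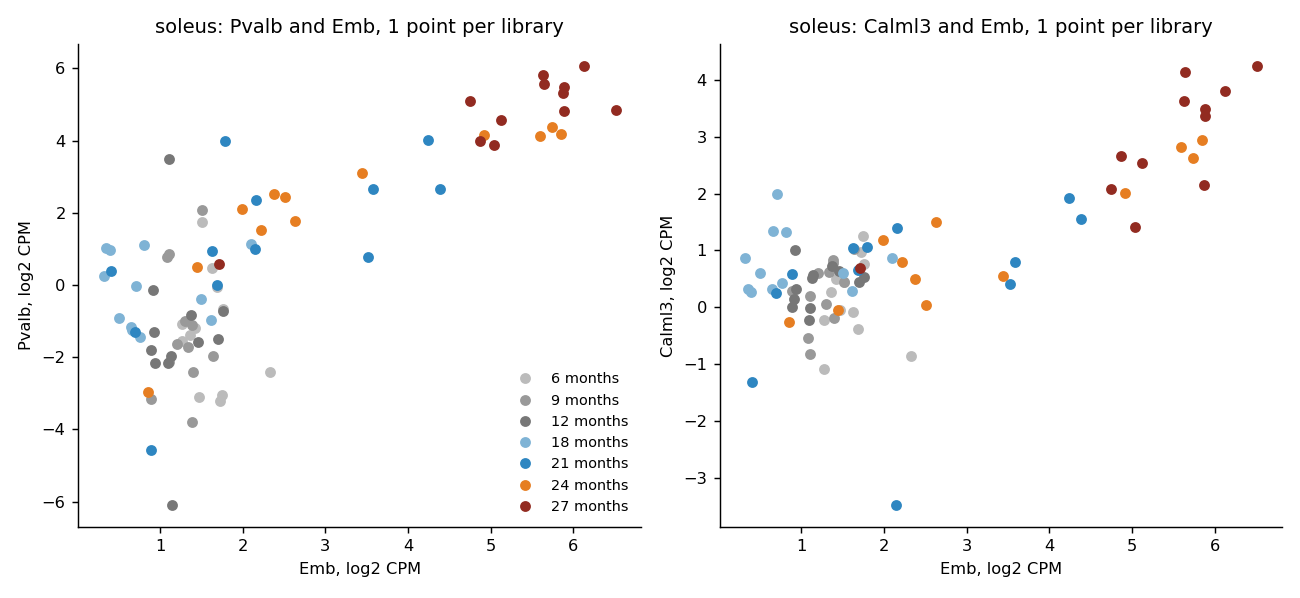
Soleus libraries at all ages, 1 point each, with Emb on the horizontal axis and Pvalb (left) or Calml3 (right) on the vertical axis, all in log2 CPM and coloured by age. The 4 libraries of 24 months with 30.2 CPM or more of Emb lie among those of 27 months, and 1 library of 27 months, with 3.25 CPM of Emb, lies among the young.

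Genes with the most similar pattern over the 28 group means of muscle and age were sought among genes whose mean log2 CPM passed 0 in at least 1 group. For Pvalb these were Mylpf, the fast regulatory myosin light chain (r = 0.997), then Tnnt3, Sox6, Capn1 and Actn3. For Emb they were Ncam1, the neural cell adhesion molecule (r = 0.971), then Prrg4, Lipg, Adam19 and Mgst2. Armcx2 was nearest to Calml3 (r = 0.958), followed by Ephb3, Erbb2, Me2 and Traf3ip3. Sema3b was nearest to Bmp3 (r = 0.934), followed by Foxp4, Hspb1, Lox and Zfp36l1. The means include the 6 and 27 month groups whose change chose the 4 genes, so that the likeness is a description only. Points of these correlations also share muscles and collection days, and for Pvalb the large steps between muscles set most of the spread.

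Among the 4 genes, over the same means and so in part by their choice, Calml3 and Emb had the highest r (0.839), and Pvalb had r of -0.100 with Calml3, 0.003 with Emb and -0.607 with Bmp3. At 24 months Ncam1 was called higher in gastrocnemius (2.67), tibialis anterior (2.95) and soleus (0.89), with adjusted p of 4.0e-18, 6.8e-15 and 1.0e-06 in limma. Its change of 0.28 in the diaphragm was under the 1.5-fold limit. Armcx2 was called higher in the gastrocnemius (1.66) and tibialis anterior (1.24). Mylpf was called in the soleus alone, and Sema3b, at 0.47 in the tibialis anterior, stayed under the limit in all 4 muscles.

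Genes that share the members' systems were taken from lists written with earlier results of these data known. Of the EF-hand calcium binders related to Pvalb and Calml3, 16 to 17 were tested in the limb muscles and 15 in the diaphragm. At 24 against 9 months 2 were called higher and 1 lower in the gastrocnemius, 3 and 2 in the tibialis anterior, 1 and 0 in the soleus, and 1 and 0 in the diaphragm. In the gastrocnemius this is near the 9.19% of all genes called higher and 6.53% called lower. The shares were 8.37% and 2.95% in the tibialis anterior, 2.97% and 1.76% in the soleus, and 0.917% and 0.202% in the diaphragm. No list-wide change is read from these counts. S100a4, a calcium binder of motile and inflammatory cells, was higher in the gastrocnemius (1.5), tibialis anterior (1.58) and diaphragm (0.61). Cib2, a calcium and integrin binder, was lower in the gastrocnemius (-1.34) and tibialis anterior (-1.45). Of the calmodulin genes given here, Calm2 was called in no muscle and Calm3 was called lower in the tibialis anterior (-0.64).

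The list of partners of Emb held 13 genes of the basigin family and of lactate and monocarboxylate transport. Of these, 3 were called higher and 5 lower in the gastrocnemius, and 2 and 1 in the tibialis anterior. The soleus had 0 and 1, and the diaphragm none. Of all genes tested, 9.19% were called higher and 6.53% lower in the gastrocnemius, and 8.37% and 2.95% in the tibialis anterior. The shares were 2.97% and 1.76% in the soleus and 0.917% and 0.202% in the diaphragm. No list-wide change is read from these counts. Slc16a3, the lactate exporter of fast fibres, was lower in the gastrocnemius (-1.33, adjusted p 4.0e-08) and tibialis anterior (-0.77, adjusted p 5.4e-04) in limma. Slc16a4 and Slc16a6 were higher in both, by 0.70 to 0.78. The other basigin family genes, Bsg and Nptn, were called in no muscle, with changes between -0.08 and 0.55.

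Of 34 tested genes of the bone morphogenetic protein and activin pathway, 7 were called higher and 5 lower in the gastrocnemius. The tibialis anterior had 7 and 4, the soleus 2 and 3, and the diaphragm none. Of all genes tested, 9.19% were called higher and 6.53% lower in the gastrocnemius, and 8.37% and 2.95% in the tibialis anterior. The shares were 2.97% and 1.76% in the soleus and 0.917% and 0.202% in the diaphragm. No list-wide change is read from these counts. Among ligands, Bmp2 was higher in the 3 limb muscles (0.71 to 1.00) and Mstn, the myostatin gene, lower in the soleus (-1.02) and tibialis anterior (-1.07). Among extracellular inhibitors, Fst rose by 2.31, 1.23 and 2.27 in the gastrocnemius, soleus and tibialis anterior, Chrd was higher in both fast muscles (1.67 and 2.29) and Nog lower in both (-1.29 and -0.60). Among receptors, Acvr1 was lower in both fast muscles (-0.60 and -0.72). Among downstream genes, Smad9 (1.88 and 1.26) and Id2 (1.02 and 0.85) were higher in both.

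Some genes known to rise when a muscle loses its nerve were called higher in each of the 4 muscles. Of 15 tested, 13 were called higher in the gastrocnemius, 14 in the tibialis anterior, 10 in the soleus and 5 in the diaphragm. None was called lower. Of all genes tested, 9.19%, 8.37%, 2.97% and 0.917% were called higher in the same order. The list had median log2 changes of 3.06, 3.36, 0.79 and 0.30 against 0.01 or less over all genes. This list, too, was written with earlier results of these data known, so its counts are a description. Any link of these genes to Emb was not tested. Chrng, the fetal subunit of the acetylcholine receptor, was higher in all 4 muscles, by 5.28, 6.23, 1.73 and 1.79 in the same order. Runx1 rose by 3.72, 4.33, 1.10 and 1.02. This list holds Ncam1, named above for its likeness to Emb.

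**Figure D4:**
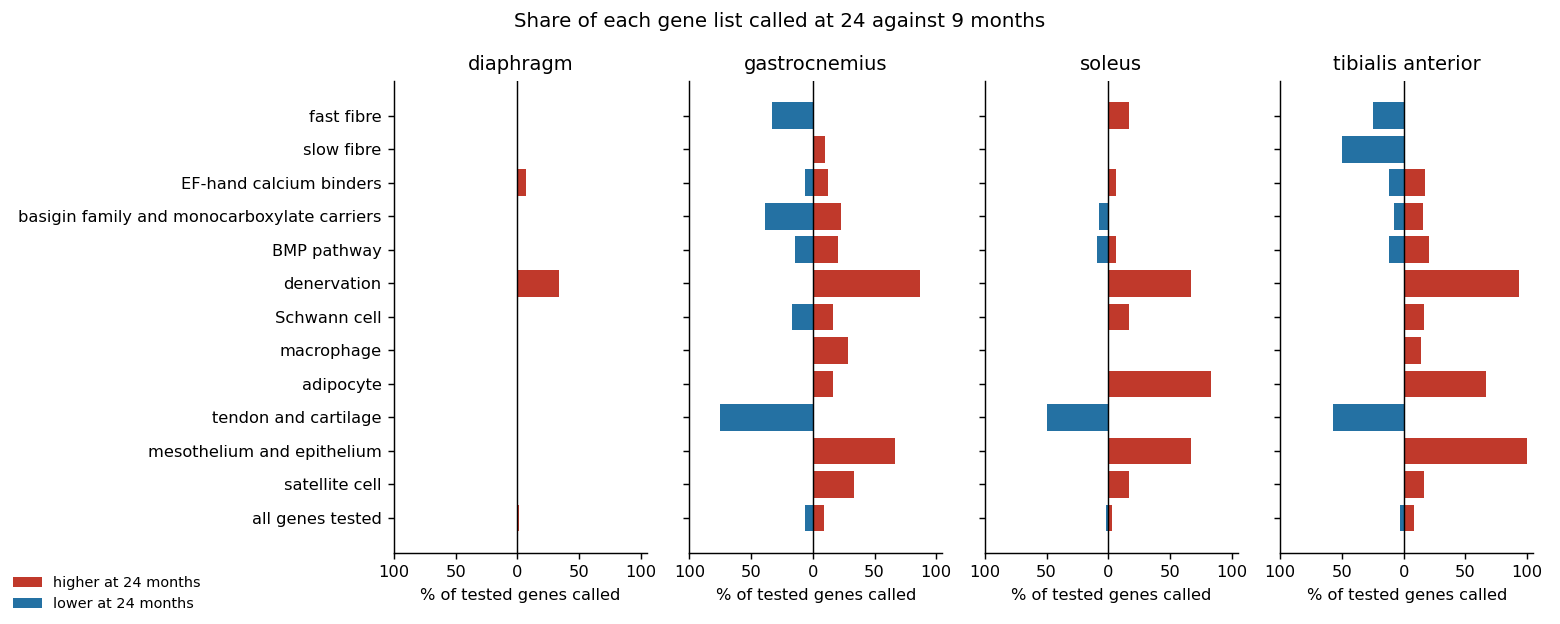
Share of the tested genes of each list called higher (red, to the right) or lower (blue, to the left) at 24 against 9 months, in percent, for each muscle, with all genes tested in the bottom row. The lists were written with earlier results of these data known. The denervation list had 13, 10 and 14 of 15 genes higher in gastrocnemius, soleus and tibialis anterior. The mesothelium and epithelium list rests on 2 tested genes in the tibialis anterior.

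Some markers of other cell types were called at 24 against 9 months in the limb muscles, where 9.19% (gastrocnemius), 2.97% (soleus) and 8.37% (tibialis anterior) of all genes were called higher. Adipocyte markers were called higher for 5 of 6 genes in soleus, 4 of 6 in tibialis anterior and 1 of 6 in gastrocnemius. Their summed level in the soleus went from 72.4 to 181 CPM at 9 months to 178 to 345 at 24 months. Of 7 macrophage markers 2 were higher in the gastrocnemius and 1 in the tibialis anterior, counts too small to be set apart from those shares. At 27 against 6 months all 7 were called higher in each of these 2 muscles, 1 in the soleus and 0 in the diaphragm. In that contrast 1787 of 11865 genes tested were called higher in the gastrocnemius and 2026 of 11754 in the tibialis anterior. Krt8 and Krt18, keratins of simple epithelia, were higher in the 3 limb muscles, by 2.40 to 6.35. Tendon and cartilage markers were lower for 6 of 8 genes in the gastrocnemius, 4 of 8 in soleus and 4 of 7 in tibialis anterior. Of all genes tested, 6.53%, 1.76% and 2.95% were called lower in these muscles, in the same order. The part of these cells in the changes of the 4 genes was not tested.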

How the data were processed

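Bulk RNA of 4 rat muscles at 7 ages was extracted with the MagMax kit, made into stranded libraries with Kapa RNA HyperPrep after removal of ribosomal RNA with FastSelect, and sequenced as read pairs. The authors deposited raw counts per gene for each library, made with the ArrayStudio pipeline on the rat B6.0 reference and a RefSeq-based gene model. The pipeline's version is not given in the sources used here. Lines of 1 symbol were summed. Groups came from the sample labels. The genes and the lists were chosen with earlier results of these data known, and so the test used libraries outside the contrast that chose the genes.

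Low genes were removed by the filterByExpr function within age groups, at a count of 10 and a total of 15. Library scaling used trimmed means of M values from edgeR 4.0.16, and models were fitted in limma 3.58.1 (voom, R 4.3.3) with a mean for each of the 5 ages from 9 to 24 months, in each muscle and, for differences between muscles, in all muscles together. The p-values were adjusted by Benjamini-Hochberg over all genes. Levels are CPM on 1 scale over 325 libraries, with a prior count of 0.5 in log2 CPM, and intervals are 1.96 SE either way. Courses were classed as without trend, linear or logistic by the Bayesian information criterion, with a margin of 6 for a trend and 2 for the logistic form. Genes named from the 12 lists were up to 4 per list, those called in most muscles and then of the largest change, and Bsg, Nptn, Calm2, Calm3, Mstn, Nog, Acvr1 and Id2 were added after their values were seen. Some genes of the lists are not reported here. Alternatives were DESeq2 1.42.0, edgeR and the settings given in the closing section. The scripts were tested on simulated data.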

Additional observations from a re-analysis of the deposited data

Results flagged for a closer look

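In 12 groups of 9 or 10 libraries, 1 library stood apart: Calml3 in the gastrocnemius at 21 months was at 0.480 CPM in replicate 0, while the next lowest library had 1.38 CPM. Chance sets apart about 1 in 20 groups.

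Of 24 differences between muscles in the 24 against 9 month change, 13 passed the test of the difference itself in limma. On the log2 scale Calml3 differed by 3.98 (gastrocnemius minus diaphragm), 2.56 (tibialis anterior minus diaphragm) and -2.64 (soleus minus gastrocnemius). Emb differed by 4.32, 4.21 and -2.94 for the same pairs and by 2.83 for tibialis anterior minus soleus. Pvalb differed by 3.67 (soleus minus diaphragm), 3.65 (soleus minus gastrocnemius) and -3.64 (tibialis anterior minus soleus). Bmp3 differed by 1.26, 1.72 and 1.30 for the tibialis anterior minus the diaphragm, gastrocnemius and soleus.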

How the results depend on the processing

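No called value of the 4 genes changed its sign. Of the 24 against 9 month changes, 177 values over all alternatives kept their side of the threshold and 11 lost the call, of the differences between muscles 273 kept it, 8 lost and 7 gained it, and of the levels at 9 months 262, 17 and 9. Over diaphragm, gastrocnemius, soleus and tibialis anterior, 133, 1846, 565 and 1313 genes were called at 24 against 9 months. These became 45, 1105, 193 and 748 by Bonferroni adjustment and 33, 618, 204 and 510 at a 2-fold threshold, and with the fast fibre level as a covariate 702 in the gastrocnemius and 745 in the tibialis anterior. Leaving out 1 library at a time gave 109 to 143, 1643 to 2268, 499 to 613 and 1141 to 1420. Differences between muscles (gastrocnemius, soleus and tibialis anterior minus diaphragm, soleus and tibialis anterior minus gastrocnemius, tibialis anterior minus soleus) were called for 1337, 413, 893, 1024, 215 and 1027 genes, for 619, 103, 396, 415, 15 and 436 by Bonferroni adjustment, for 502, 166, 431, 423, 30 and 458 at 2-fold, and in the fifth pair for 459 with quality weights. Levels at 9 months were called for 4691, 2806, 4404, 5365, 2141 and 5207 genes, for 2365, 1553, 2356, 2790, 743 and 2855 at 2-fold, and with the fast fibre covariate for 1837, 3366 and 2993 in the pairs of the soleus. Stricter thresholds call fewer genes by construction, and the cause of the other shifts was not tested. Replicate numbers are shared between groups, but same-numbered libraries correlated over 0.1 in 26 to 60 of 72 to 84 pairs across muscles and not in every pair, so the pairing was not used. The median correlation of same-numbered libraries was 0.200 for diaphragm and tibialis anterior, 0.181 for soleus and tibialis anterior, 0.131 for diaphragm and soleus and 0.034 to 0.085 with the gastrocnemius, against -0.026 to -0.013 for other numbers, a hint from the data that some may share an animal, which the labels do not give. The replicate block gave 132, 2044, 602 and 1282 genes at 24 against 9 months. Within a muscle it tied equal numbers across ages, which are different rats, so it is no pairing by animal. Median correlations of equal numbers at 9 and 24 months were -0.017 to 0.066. Between muscles the block tied equal numbers of 1 age. There it called 3 further differences, Calml3 by 1.85 and Emb by 2.06 for soleus minus diaphragm and Calml3 by 1.37 for tibialis anterior minus soleus. With the fast fibre covariate the levels at 9 months also lost calls for Bmp3 (soleus minus diaphragm, 0.66), Calml3 (soleus minus gastrocnemius, 1.17, and tibialis anterior minus soleus, -1.03) and Emb (tibialis anterior minus soleus, -2.19). The separate spread per muscle was chosen after seeing the data. Counts under 10 in some libraries limit Pvalb in the soleus, Calml3 in the fast muscles and Bmp3 in the tibialis anterior.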

Other observations

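Other marker lists held a few called genes at 24 against 9 months, where 9.19%, 2.97% and 8.37% of all genes were called higher in gastrocnemius, soleus and tibialis anterior, and their part in the changes of the 4 genes was not tested. Of 10 slow fibre genes 5 were called lower in the tibialis anterior, against 2.95% of all genes tested, Myh7 by -0.83 (adjusted p 0.00455 in limma). In the gastrocnemius 1 was higher, and none was called in the soleus or diaphragm. Of the satellite cell markers, 2 of 6 were higher in the gastrocnemius and 1 of 6 in each of the soleus and tibialis anterior, too few to call the list changed. Myf5, an early myogenic factor, was higher in the gastrocnemius (1.44) and tibialis anterior (1.49), and Myod1 in the gastrocnemius (1.18) and soleus (1.30). Of 6 Schwann cell markers tested in each limb muscle, Cnp was higher in all 3 (1.19, 0.76 and 0.99 in gastrocnemius, soleus and tibialis anterior). In the diaphragm none of these lists held a called gene.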
